A study of Caenorhabditis elegans with 12 samples.

Results

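The genes described are the 6 pharyngeal muscle genes myo-1, myo-2 and myo-5, which encode myosin heavy chains, and tnc-2, tni-4 and tnt-4, which encode the troponin subunits C, I and T. They were taken by symbol from the deposited count table, in which 6 of the 20182 genes are these, and each had counts in all 12 libraries. All 6 passed the filter on low counts that left 15194 genes. The libraries hold RNA recovered by immunoprecipitation (IP) from whole young adult Caenorhabditis elegans.

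The FLAG IPs, which target the tagged protein, were made from 3 strains. The transgene of strain CEY1 (rrrSi300) carries FLAG-tagged cey-1 under the cey-1 promoter. In strain CEY2 (rrrSi233) FLAG-tagged cey-2 is under the cey-2 promoter, and in strain CEY4 (rrrSi307) FLAG-tagged cey-4 is under the promoter of another gene, dpy-30. CEY-1, CEY-2 and CEY-4 are Y-box proteins, which bind RNA through a cold-shock domain. All 3 transgenes also carry an operon linker with a PEST-tagged GFP histone marker, the tbb-2 3' end and unc-119(+). The controls were MYC IPs from the same strains, in which no MYC tag is listed. There were 2 libraries for every strain and antibody, 6 groups in all. The labels leave unsaid whether the 2 libraries are independent cultures, and the p-values reflect nothing beyond how these libraries vary. Which cells of the worm made each tagged protein was not measured here, and the labels do not give the state of the endogenous cey genes.

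Total counts lay between 22915137 and 33529549 in the FLAG libraries and between 3353523 and 12802412 in the MYC libraries. Markers of every tissue list checked (germline, intestine, neurons and hypodermis) were detected in every group, and none of these markers was at 0 in both libraries of a group. In the MYC libraries the summed level, in CPM (the count of a gene per 1000000 scaled counts of the library), was 6164 to 9369 for the 10 germline markers, 14664 to 17326 for the 8 intestine markers, 99.9 to 177 for the 8 neuron markers and 909 to 1219 for the 8 hypodermis markers. Of this last sum the collagen gene col-19 made up on average 895 CPM in CEY1 MYC, 537 CPM in CEY2 MYC and 862 CPM in CEY4 MYC libraries, so the sum says little of the other hypodermis markers, whose values in the controls follow further on. Most of the intestine sum likewise came from vit-2 and vit-6. The summed level of the 6 pharyngeal muscle genes was 898 to 915 CPM in CEY1 FLAG, 391 to 400 CPM in CEY2 FLAG and 2261 to 2330 CPM in CEY4 FLAG libraries, against 361 to 382, 429 to 441 and 503 to 505 CPM in the MYC libraries of these strains. TMM (trimmed mean of M values) factors from edgeR scale these CPM values, and the order of the sums between groups holds on this scale only. Scaling by total count instead moved the log2 fold changes of FLAG over MYC by a median of −1.49 (CEY1), −1.73 (CEY2) and −1.41 (CEY4). With CEY1 the median over the 6 genes thereby turned from 1.37 to −0.12. They are not divided by transcript length, so levels are compared between groups for 1 gene and not between genes.

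The pharynx is the feeding pump of the worm, a tube of muscle that contracts rhythmically to draw in and grind bacteria. Its muscle cells build sarcomeres in which thick filaments of myosin pull on thin filaments of actin, and the troponin complex on the thin filament makes this pull depend on calcium. Troponin C binds calcium, troponin I holds the filament in the off state, and troponin T anchors the complex to tropomyosin. The pharynx uses heavy chain and troponin genes that differ from those of body wall muscle, and myo-2 is the standard marker of pharyngeal muscle.

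The mRNAs of the 3 myosin heavy chains were most abundant in the CEY4 FLAG IP. The myo-1 gene (WBGene00002348) encodes one of the pharyngeal heavy chains. It stood at 411 and 402 CPM in the CEY1 FLAG libraries, against 143 and 127 CPM in the CEY1 MYC libraries. It stood at 183 and 186 CPM in CEY2 FLAG against 156 and 152 CPM in CEY2 MYC, and at 1031 and 1069 CPM in CEY4 FLAG against 182 and 188 CPM in CEY4 MYC. FLAG and MYC libraries did not overlap in any strain, and the gap was widest in CEY4 and narrowest in CEY2. How many of all genes lack such overlap was not counted, so its absence, here or below, sets no gene apart. The fitted log2 fold change was 1.60 ± 0.06 with CEY1 (SE, adjusted p = 2.42e-25 by edgeR's quasi-likelihood test), 0.26 ± 0.06 with CEY2 (adjusted p = 0.000283) and 2.50 ± 0.06 with CEY4 (adjusted p = 6.92e-33), the last a 5.67-fold difference that ranked 281 from the top among 15194 genes. With total-count scaling these values became 0.11, which missed the threshold, then −1.47 and 1.09, so the direction with CEY2 depends on the scale.

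The myo-2 gene (WBGene00003514) stood at 211 and 196 CPM in CEY1 FLAG libraries, against 130 and 130 CPM in CEY1 MYC libraries. In CEY2 it was at 136 and 146 CPM in FLAG against 164 and 174 CPM in MYC libraries. In CEY4 it was at 861 and 875 CPM in FLAG against 194 and 190 CPM in MYC libraries. The FLAG libraries were thus above their controls in CEY1 and CEY4 and below them in CEY2, without overlap. Its log2 fold changes were 0.65 ± 0.06 (CEY1, adjusted p = 4.3e-12), −0.26 ± 0.06 (CEY2, adjusted p = 0.000334) and 2.18 ± 0.06 (CEY4, adjusted p = 5.86e-31). With total-count scaling they became −0.85, −1.99 and 0.76, so the direction with CEY1 depends on the scale.

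The third heavy chain gene, myo-5 (WBGene00019064), was at 106 and 108 CPM in CEY1 FLAG libraries, against 50.1 and 47.2 CPM in CEY1 MYC libraries. In CEY2 it was at 43.9 and 42.4 CPM in FLAG against 56.5 and 61.2 CPM in MYC libraries. In CEY4 it was at 263 and 275 CPM in FLAG against 78.4 and 79.9 CPM in MYC libraries. The order was that of myo-2, with CEY2 FLAG libraries below and the others above their controls. The log2 fold changes were 1.14 ± 0.08 (CEY1, adjusted p = 8.35e-17), −0.45 ± 0.08 (CEY2, adjusted p = 5.73e-06) and 1.77 ± 0.06 (CEY4, adjusted p = 5.43e-26). With total-count scaling they became −0.36, −2.18 and 0.35, the first again with the other sign.

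**Figure D1:**
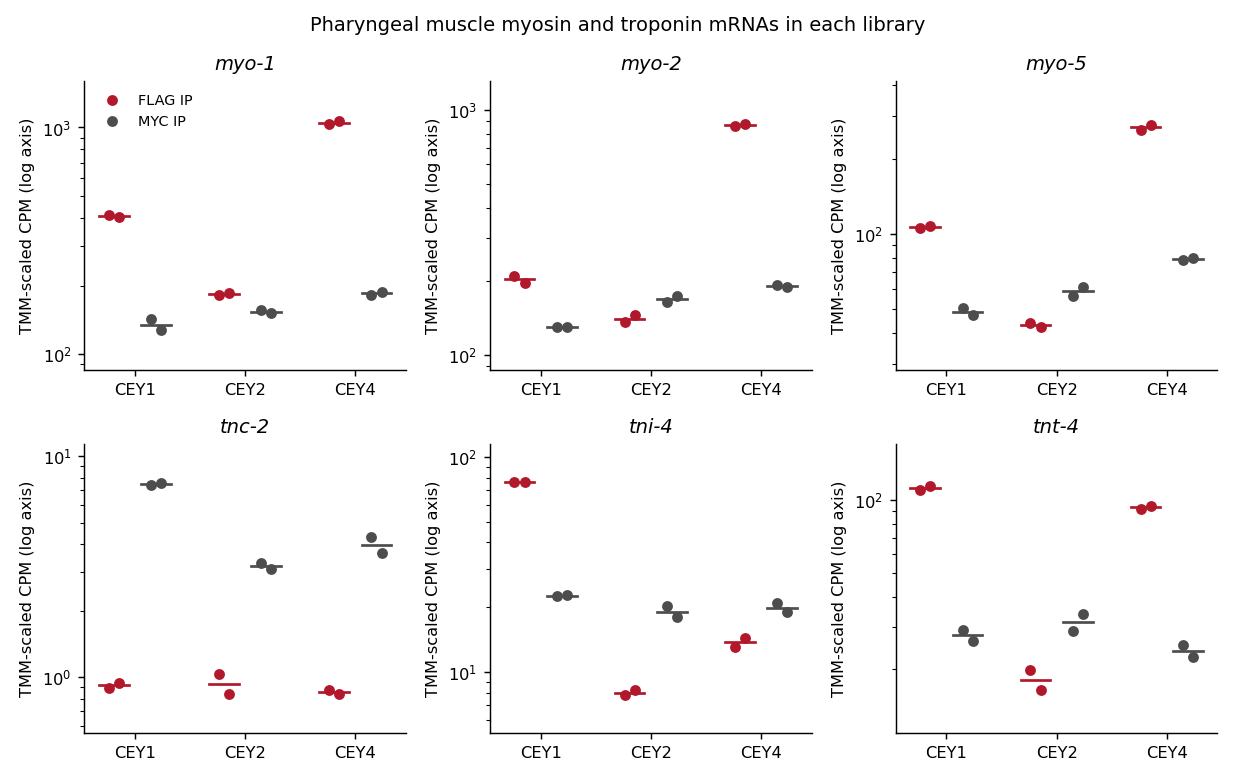
Each panel shows the TMM-scaled CPM (log axis) of 1 gene in all 12 libraries, with FLAG IPs in red left of MYC IPs in grey for each strain, points for libraries and bars for the mean of 2. The myosin genes are highest in CEY4 FLAG libraries (myo-2 at 861 and 875 CPM), tni-4 in CEY1 FLAG libraries (76.1 and 76.7 CPM), and tnc-2 is lower in FLAG than in MYC libraries of every strain.

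The troponin mRNAs moved apart from each other. The tnt-4 mRNA (WBGene00006589), for the tropomyosin-binding subunit, was higher in FLAG than in MYC libraries with CEY1 and CEY4 and lower with CEY2. It stood at 110 and 114 CPM in CEY1 FLAG libraries, against 29.0 and 26.2 CPM in CEY1 MYC libraries. In CEY2 it was at 19.9 and 16.4 CPM in FLAG against 28.8 and 33.7 CPM in MYC libraries, and in CEY4 at 92.4 and 95.2 CPM in FLAG against 25.3 and 22.4 CPM in MYC libraries. No FLAG library overlapped its controls. The log2 fold changes were 2.03 ± 0.10 (CEY1, adjusted p = 8.57e-22), −0.79 ± 0.11 (CEY2, adjusted p = 7.93e-08) and 1.97 ± 0.09 (CEY4, adjusted p = 9.99e-23), and all 3 kept their direction with total-count scaling (0.54, −2.52 and 0.56).

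The tni-4 mRNA (WBGene00006586), for the inhibitory subunit, was higher with CEY1 and lower with CEY2 and CEY4. It stood at 76.1 and 76.7 CPM in CEY1 FLAG libraries, against 22.5 and 22.7 CPM in CEY1 MYC libraries. In CEY2 it was at 7.80 and 8.20 CPM in FLAG against 20.1 and 17.9 CPM in MYC libraries, and in CEY4 at 13 and 14.4 CPM in FLAG against 20.9 and 18.9 CPM in MYC libraries. The controls of all strains lay between 17.9 and 22.7 CPM, while the FLAG libraries of each strain stood apart from those of the others and from their controls. The log2 fold changes were 1.76 ± 0.11 (CEY1, adjusted p = 1.37e-18), −1.25 ± 0.14 (CEY2, adjusted p = 1.34e-10) and −0.54 ± 0.11 (CEY4, adjusted p = 5.59e-05), in the same directions with total-count scaling (0.27, −2.98 and −1.95).

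The tnc-2 mRNA (WBGene00006583), for the calcium-binding subunit, was lower with the FLAG antibody in all 3 strains. It stood at 0.894 and 0.939 CPM in CEY1 FLAG libraries, against 7.40 and 7.59 CPM in CEY1 MYC libraries. In CEY2 it was at 1.03 and 0.839 CPM in FLAG against 3.29 and 3.08 CPM in MYC libraries, and in CEY4 at 0.878 and 0.839 CPM in FLAG against 4.31 and 3.66 CPM in MYC libraries. These levels rest on 12 to 19 counts per FLAG library and 22 to 83 counts per MYC library, so tnc-2 is the least precise of the 6. The log2 fold changes were −3.02 ± 0.31 (CEY1, 8.13-fold lower, adjusted p = 1.35e-11), −1.77 ± 0.34 (CEY2, adjusted p = 1.61e-05) and −2.20 ± 0.30 (CEY4, adjusted p = 2.33e-08), and −4.51, −3.49 and −3.61 with total-count scaling. Its FLAG levels all lay between 0.839 and 1.03 CPM, and its controls were highest in CEY1.

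Counting the 6 genes by comparison, 5 were higher and 1 lower with CEY1, where 32.3% and 34.4% of all tested genes were higher and lower. With CEY2, 1 was higher and 5 lower, against 34.9% and 34.1% of all genes. With CEY4, 4 were higher and 2 lower, against 31.5% and 37% of all genes. The medians over the 6 were 1.37, −0.62 and 1.87, beside −0.26, −0.41 and −0.35 over all tested genes. With total-count scaling the medians over the 6 were −0.12, −2.35 and 0.46, so that with CEY1 turned sign, beside −1.75, −2.12 and −1.75 over all tested genes. Total-count scaling moved all genes by a median of −1.49 (CEY1), −1.73 (CEY2) and −1.41 (CEY4), and turned the 4910 higher and 5223 lower genes with CEY1 into 1649 and 10848, the 5300 and 5177 with CEY2 into 2014 and 10889, and the 4788 and 5625 with CEY4 into 1406 and 12110. Of the 6 genes it gave 2 higher and 3 lower with CEY1 and 0 and 6 with CEY2, while the 4 higher and 2 lower with CEY4 were as before in number. No input or spike-in was used here, so the amount of RNA brought down is not known and each fold change is relative to the other mRNAs of a library.

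**Figure D2:**
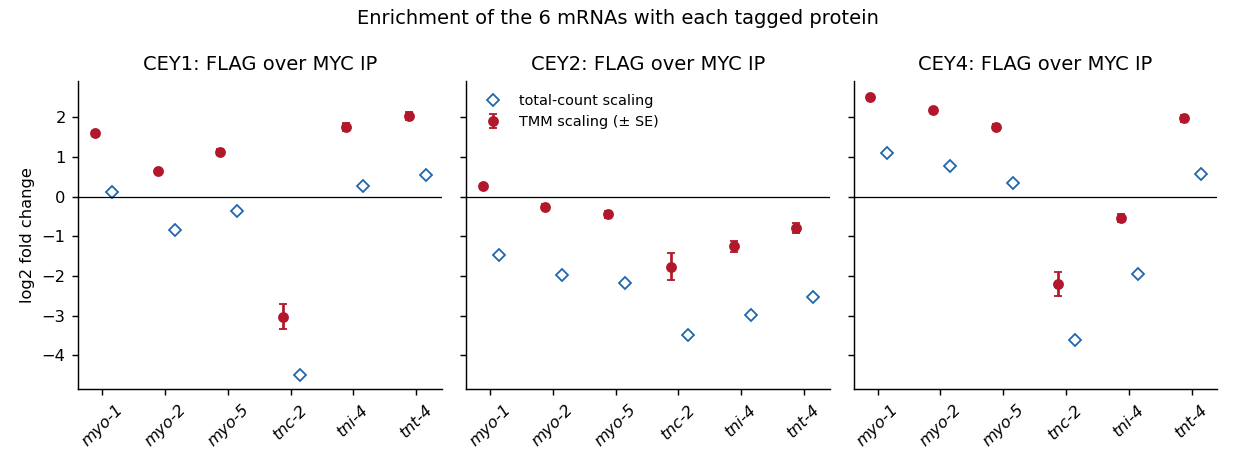
Log2 fold change of FLAG over MYC IPs for the 6 genes with each tagged protein, as red points with TMM scaling (bars are SE) and as blue diamonds with total-count scaling. With CEY4 the 3 myosin genes and tnt-4 stay above 0 on both scales, and tnc-2 stays below 0 with each protein, whereas myo-2 and myo-5 with CEY1 and myo-1 with CEY2 lie above 0 with TMM and below 0 with total-count scaling.

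Ratios between 2 of these mRNAs within a library do not depend on how libraries are scaled, and they separated the tagged proteins. The ratio of tni-4 to myo-1 counts was 0.185 and 0.191 in CEY1 FLAG libraries, against 0.158 and 0.178 in CEY1 MYC libraries. It was 0.0427 and 0.0441 in CEY2 FLAG against 0.129 and 0.118 in CEY2 MYC libraries, and 0.0126 and 0.0135 in CEY4 FLAG against 0.115 and 0.100 in CEY4 MYC libraries. On the log2 scale the mean ratio in FLAG minus that in MYC libraries was 0.16 (CEY1), −1.51 (CEY2) and −3.04 (CEY4). The 2 mRNAs thus kept nearly their control proportion with CEY1, and tni-4 lost ground to myo-1 with CEY2 and, further, with CEY4.

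The ratio of tni-4 to tnt-4, both troponin mRNAs, was 0.691 and 0.670 in CEY1 FLAG against 0.774 and 0.866 in CEY1 MYC libraries. In CEY4 it was 0.141 and 0.152 in FLAG against 0.826 and 0.842 in MYC libraries, and in CEY2 0.392 and 0.501 in FLAG against 0.699 and 0.531 in MYC libraries. The widest gap was that in CEY4, at −2.51 on the log2 scale, against −0.27 in CEY1 and −0.46 in CEY2. Among the heavy chains, the ratio of myo-1 to myo-2 was higher in FLAG than in MYC libraries of each strain, at 1.95 and 2.05 against 1.09 and 0.976 in CEY1, 1.34 and 1.27 against 0.948 and 0.873 in CEY2, and 1.20 and 1.22 against 0.941 and 0.992 in CEY4. These ratios are given as descriptions, since an exact permutation test of 2 libraries against 2 cannot give a two-sided p below 0.333.

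**Figure D3:**
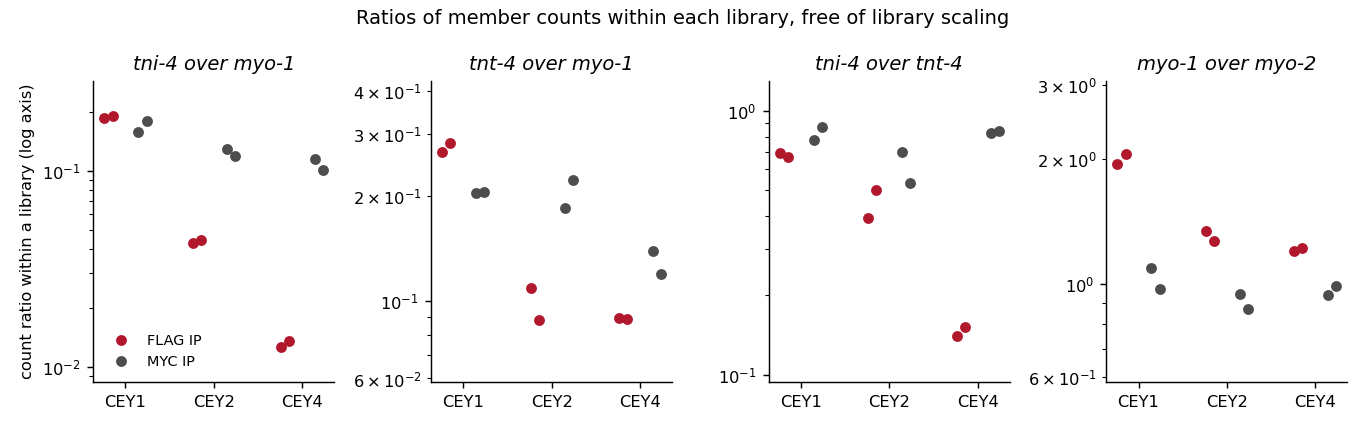
Ratio of the counts of 2 genes within each library (log axis), with FLAG IPs in red left of MYC IPs in grey for each strain and 1 point per library. The ratio of tni-4 to myo-1 is near its control in CEY1 (0.185 and 0.191 against 0.158 and 0.178) and far below it in CEY4 (0.0126 and 0.0135 against 0.115 and 0.100).

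Differences between the tagged proteins were tested directly as differences of the log2 enrichments. Enrichment with CEY1 exceeded that with CEY2 for 5 of the 6 genes and was lower for tnc-2, where 18.4% and 31.4% of all tested genes were higher and lower. The differences were largest for tni-4 (3.01 ± 0.18, adjusted p = 1.99e-18) and tnt-4 (2.82 ± 0.15, adjusted p = 1.95e-19), and were 1.34 ± 0.09 for myo-1, 0.91 ± 0.09 for myo-2 and 1.58 ± 0.11 for myo-5. For tnc-2 the difference was −1.25 ± 0.48 (adjusted p = 0.026), and it was no longer called after leaving out replicate 1 (−1.22) or 2 (−1.29) of CEY1 FLAG, replicate 1 of CEY2 FLAG (−1.11) or replicate 2 of CEY2 MYC (−1.21). The call was also lost with total-count scaling (−1.02) and with DESeq2's size factors (−0.92).

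The contrast of CEY1 with CEY4 set the myosin mRNAs apart from tni-4. All 3 heavy chain mRNAs were less enriched with CEY1 than with CEY4, by −0.90 ± 0.08 (myo-1), −1.53 ± 0.08 (myo-2, adjusted p = 1.32e-18) and −0.63 ± 0.10 (myo-5). The troponin I mRNA tni-4 was more enriched with CEY1, by 2.30 ± 0.15 (adjusted p = 5.53e-16). For tnt-4 the difference was 0.06 ± 0.14 (adjusted p = 0.789) and for tnc-2 −0.82 ± 0.47 (adjusted p = 0.181). In all 1 gene was higher and 3 were lower, against 18.2% and 18.6% of all tested genes.

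Enrichment with CEY2 was below that with CEY4 for 5 of the 6 genes and above it for 0, where 14.7% and 32.3% of all tested genes were lower and higher (4913 higher and 2229 lower, against 3952 and 3184 with total-count scaling). The values were −2.24 ± 0.08 for myo-1, −2.44 ± 0.08 for myo-2, −2.21 ± 0.10 for myo-5, −0.71 ± 0.18 for tni-4 (adjusted p = 0.000787) and −2.76 ± 0.15 for tnt-4. The last ranked 209 from the bottom among 15194 genes. For tnc-2 the difference was 0.43 ± 0.47 (adjusted p = 0.499 by edgeR). The direction was not particular to these genes. Of the intestine, neuron and hypodermis markers (8 each) 7, 6 and 6 were lower and 0, 1 and 0 higher. All 10 germline markers were higher. For CEY1 minus CEY2, 7, 6 and 5 of these somatic markers were higher and 1, 1 and 0 lower, with 1 germline marker higher and 9 lower. Of 20 other sarcomere genes 15 were lower and 3 higher for CEY2 minus CEY4, and 16 higher and 3 lower for CEY1 minus CEY2.

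The FLAG libraries, compared with each other without the controls, showed the same order of strains for the heavy chains. Between CEY1 and CEY2 FLAG libraries 5 genes were higher and 0 lower (29.9% and 31.2% of all genes), led by tni-4 at 3.25 ± 0.11. Between CEY1 and CEY4 FLAG libraries 2 were higher and 3 lower (23.6% and 25.4% of all genes): tni-4 at 2.48 ± 0.10 and tnt-4 at 0.26 ± 0.08 were higher, and myo-1 (−1.37 ± 0.06), myo-2 (−2.09 ± 0.06) and myo-5 (−1.34 ± 0.06) were lower. The call of tnt-4 was lost without CEY1 FLAG replicate 2 (0.23) or CEY4 FLAG replicate 1 (0.24). Between CEY2 and CEY4 FLAG libraries 0 were higher and 5 lower (27.6% and 27.3% of all genes), from −2.64 ± 0.07 for myo-5 to −0.77 ± 0.13 for tni-4. The tnc-2 differences between FLAG libraries were −0.02 ± 0.38 (CEY1 and CEY2), 0.09 ± 0.40 (CEY1 and CEY4) and 0.11 ± 0.37 (CEY2 and CEY4), with adjusted p of 0.97, 0.895 and 0.827.

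The controls of the strains also differed. In control IPs from whole worms, fewer pharyngeal muscle cells, less of an mRNA per cell and a different recovery of RNA cannot be told apart. Between CEY1 and CEY4 MYC libraries tnc-2 was higher (0.91 ± 0.24; not called without CEY1 MYC replicate 2, at 0.89, or by DESeq2, at 0.92) and the 3 heavy chains lower, from −0.71 ± 0.08 for myo-5 to −0.46 ± 0.06 for myo-1, with 6.2% and 8.35% of all genes higher and lower. Between CEY1 and CEY2 MYC libraries tnc-2 was higher (1.23 ± 0.28, but 0.89 and not called by DESeq2) and the heavy chains lower (39.7% and 14.8% of all genes), the lowest being myo-2 at −0.38 ± 0.07. With total-count scaling the heavy chain values were −0.65 (myo-1), −0.82 (myo-2) and −0.72 (myo-5), and tnt-4, not called at −0.19 ± 0.12, was called lower at −0.63, which made 4 genes lower. On that scale the 6028 higher and 2253 lower genes of this comparison became 3371 and 4128. Of the heavy chains, myo-1 missed the threshold without CEY1 MYC replicate 2 (−0.11) or CEY2 MYC replicate 1 (−0.18), and myo-5 without CEY1 MYC replicate 2 (−0.23) or CEY2 MYC replicate 2 (−0.22). The call of myo-1 was also lost with no filter on low counts (−0.15, adjusted p = 0.0617 by edgeR). Between CEY2 and CEY4 MYC libraries tnt-4 was higher (0.39 ± 0.11, but 0.27 and not called without CEY2 MYC replicate 2) and the heavy chains lower (15.4% and 42.4% of all genes), from −0.43 ± 0.08 for myo-5 to −0.18 ± 0.06 for myo-2. The call of myo-2 was lost without CEY2 MYC replicate 1 (−0.14) or CEY4 MYC replicate 1 (−0.17), and with total-count scaling all 3 heavy chain values turned positive (0.22 for myo-1, 0.30 for myo-2 and 0.0545 for myo-5), while the 2336 higher and 6446 lower genes became 4192 and 3409.

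Markers of other tissues differed between these controls too. Of the 8 hypodermis markers 7 were higher and 1 lower in CEY2 than in CEY4 MYC libraries (median 2.53), 1 higher and 6 lower in CEY1 than in CEY2 MYC libraries (median −1.31), and 4 higher and 0 lower in CEY1 than in CEY4 MYC libraries (median 1.55). The collagen gene rol-6, for example, averaged 16.4 ± 2.91 CPM in CEY1 MYC, 90.9 ± 7.42 CPM in CEY2 MYC and 5.11 ± 0.255 CPM in CEY4 MYC libraries (SD, n = 2 each), and sqt-3 averaged 48.2 ± 8.77, 132 ± 1.23 and 16.6 ± 1.22 CPM. Of the 8 neuron markers 8 were higher in CEY2 than in CEY4 MYC libraries (median 0.88) and 7 lower in CEY1 than in CEY2 MYC libraries (median −0.71), with 1 higher and 0 lower between CEY1 and CEY4 (median 0.19). These medians kept their sign with total-count scaling, and the shares of all genes called between these controls are those given above. Whether the worm samples or the recovery of RNA in the control IPs differed was not tested. The part of such differences in the control levels of the 6 genes was not tested either.

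Muscle genes of the same role outside the list were followed beside each subunit. Body wall muscle builds its thick filaments from the heavy chains of unc-54 and myo-3. The unc-54 mRNA averaged 4445 ± 12.9 CPM in CEY1 FLAG libraries against 1739 ± 121 CPM in CEY1 MYC libraries (SD, n = 2 each). Its log2 fold changes were 1.35 ± 0.05 (CEY1, but −0.13 with total-count scaling), 0.09 ± 0.05 (CEY2, adjusted p = 0.117 by edgeR, but −1.64 and called with total-count scaling) and 1.92 ± 0.05 (CEY4). Those of myo-3 were 0.40 ± 0.06 (CEY1, but −1.09 with total-count scaling), −0.60 ± 0.06 (CEY2) and 1.28 ± 0.06 (CEY4, but −0.14 with total-count scaling). Both body wall heavy chains were less enriched with CEY1 than with CEY4, by −0.56 ± 0.07 (unc-54, adjusted p = 5.77e-09) and −0.87 ± 0.08 (myo-3, adjusted p = 2.52e-12), as were the 3 pharyngeal ones. The myo-6 gene, of the same family, lay at 6.17 to 13.6 CPM in the group means and was lower with CEY2 (−0.93 ± 0.18). Its values of −0.09 ± 0.21 with CEY1 and −0.22 ± 0.17 with CEY4 were not called, but −1.58 and −1.64 were with total-count scaling.

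The body wall troponin C gene pat-10 was lower with CEY2 and CEY4, as tnc-2 was, and higher with CEY1, where tnc-2 was lower. It averaged 327 ± 11 CPM in CEY1 FLAG against 155 ± 10.6 CPM in CEY1 MYC libraries (1.08 ± 0.08, but −0.41 with total-count scaling), 15.2 ± 1.33 against 85.9 ± 16.2 CPM in CEY2 (−2.49 ± 0.11), and 29.4 ± 0.0999 against 124 ± 19.3 CPM in CEY4 (−2.07 ± 0.09). Its enrichment with CEY1 exceeded that with CEY4 by 3.16 ± 0.13 (adjusted p = 3.35e-23 by edgeR). Among the troponin I genes, tni-1 had log2 fold changes of 0.57 ± 0.10 with CEY1 and 0.22 ± 0.10 with CEY4, but −0.92 and −1.19 with total-count scaling. The body wall troponin I gene unc-27 had 0.04 ± 0.08 with CEY1 (adjusted p = 0.675, but −1.45 and called with total-count scaling) and −0.70 ± 0.08 with CEY4. The tni-3 gene had −0.60 ± 0.17 with CEY1 and −0.0011 ± 0.14 with CEY4 (adjusted p = 0.995, but −1.41 and called with total-count scaling). With CEY2 all 3 were lower, between −1.97 (unc-27) and −1.48 (tni-1).

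Among troponin T genes, tnt-3 was higher with CEY1 and CEY4, as tnt-4 was, at 1.97 ± 0.07 and 2.19 ± 0.06, and stood at 0.0024 ± 0.08 with CEY2 (adjusted p = 0.981 by edgeR, but −1.73 and called with total-count scaling). The tnt-2 mRNA had 1.05 ± 0.06 with CEY1, −1.52 ± 0.06 with CEY2 and 0.60 ± 0.06 with CEY4, but −0.44 with CEY1 and −0.81 with CEY4 under total-count scaling. That of mup-2, a troponin T of body wall muscle, had 0.08 ± 0.07 for CEY1 (not called, adjusted p = 0.289), −1.45 ± 0.08 for CEY2 and 0.77 ± 0.07 for CEY4. Under total-count scaling its CEY1 value was −1.41, which was called, and its CEY4 value −0.64. Over these 10 other myosin and troponin genes, 6 were higher and 1 lower with CEY1 (median 0.49, but −1.0 with total-count scaling), 0 and 8 with CEY2 (median −1.46), and 6 and 2 with CEY4 (median 0.41, but −1.0 with total-count scaling). The counts with total-count scaling were 1 and 9 with CEY1, 0 and 10 with CEY2, and 2 and 8 with CEY4. All 10 were more enriched with CEY1 than with CEY2 (0.85 to 3.58), and all 10 less enriched with CEY2 than with CEY4 (−2.22 to −0.42). Between CEY1 and CEY4 they split, with 4 higher and 5 lower. The troponin I genes unc-27 (0.74 ± 0.11) and tni-1 (0.36 ± 0.14, but 0.28 and not called with total-count scaling) were more enriched with CEY1, as tni-4 was. The third, tni-3, was less enriched (−0.60 ± 0.22). The shares of all genes called in these comparisons are those given above.

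**Figure D4:**
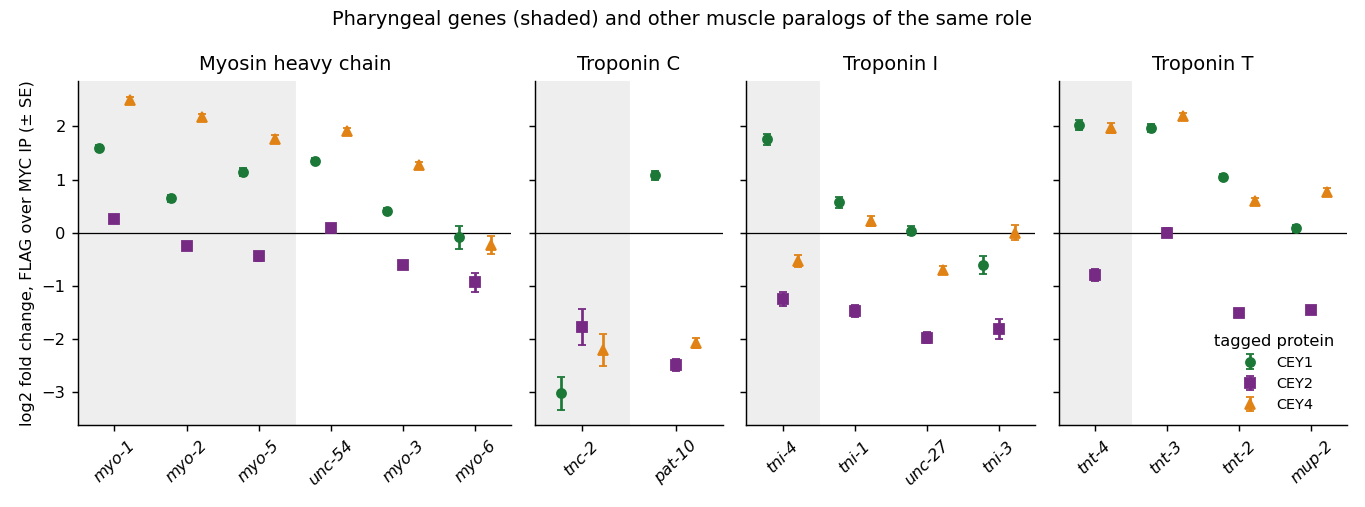
Log2 fold change of FLAG over MYC IPs (TMM scaling, bars are SE) for the pharyngeal genes (shaded) and other muscle genes of the same role, with CEY1 as circles, CEY2 as squares and CEY4 as triangles. For myo-1, myo-2, myo-5, unc-54 and myo-3 CEY4 is highest and CEY2 lowest, while tni-4 (1.76 with CEY1, −0.54 with CEY4) and pat-10 (1.08 and −2.07, the first of them −0.41 with total-count scaling) are highest with CEY1.

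The other sarcomere genes encode thin filament, thick filament and attachment proteins. Of the 20 tested, 16 were higher and 2 lower with CEY1 (median 1.02, but −0.46 with total-count scaling), 4 and 15 with CEY2 (median −0.69), and 15 and 3 with CEY4 (median 0.69, but −0.73 with total-count scaling). With total-count scaling 6 were higher and 14 lower with CEY1, 0 and 18 with CEY2, and 3 and 15 with CEY4. Over all tested genes the shares higher and lower were 32.3% and 34.4% (CEY1), 34.9% and 34.1% (CEY2) and 31.5% and 37% (CEY4). Total-count scaling made 10848, 10889 and 12110 of all 15194 genes lower. The actin gene act-4 (2.44 ± 0.05) led with CEY1, followed by act-1 (2.34 ± 0.17) and the paramyosin gene unc-15 (2.17 ± 0.05). With CEY4 unc-15 led (2.34 ± 0.05), followed by the giant filament protein genes ttn-1 (1.63 ± 0.05) and unc-89 (1.56 ± 0.05). The lowest with CEY1 (−1.97 ± 0.18) and with CEY4 (−1.09 ± 0.15) was unc-78, which encodes an actin-interacting protein. With CEY2 unc-94, for tropomodulin, was at 1.82 ± 0.08 (0.0947 and not called with total-count scaling). The myosin chaperone gene unc-45 was at 1.59 ± 0.07 with CEY2, but at −0.14 with total-count scaling, and the lowest was the regulatory light chain gene mlc-1 (−1.85 ± 0.15). The actin genes are nearly identical to each other, as are mlc-1 and mlc-2, so the split of reads among them is uncertain.

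Among 17 other genes of the pharynx, 8 were higher and 1 lower with CEY1, 1 and 10 with CEY2, and 3 and 1 with CEY4. The medians were 0.24 (CEY1, but −1.24 with total-count scaling), −1.06 (CEY2) and −0.30 (CEY4). With total-count scaling 2 were higher and 8 lower with CEY1, 1 and 15 with CEY2, and 1 and 13 with CEY4. Beside these counts, 32.3% and 34.4% of all tested genes were higher and lower with CEY1. The shares were 34.9% and 34.1% with CEY2 and 31.5% and 37% with CEY4. With total-count scaling 1649, 2014 and 1406 of all 15194 genes were higher and 10848, 10889 and 12110 lower. The pharyngeal gland gene phat-1 had the highest called value with CEY1, 3.04 ± 1.03, at 0.976 ± 0.606 CPM in CEY1 FLAG against 0.117 ± 0.0317 CPM in CEY1 MYC libraries, and was not called with total-count scaling. With CEY2 the lower genes included eat-2, an acetylcholine receptor subunit gene, which was at 0 in both CEY2 FLAG libraries against 0.465 ± 0.459 CPM in CEY2 MYC libraries, glc-2 (−1.62 ± 0.45) and phat-3 (−1.58 ± 0.37). The lower gene with CEY1 was exp-2 (−1.01 ± 0.39) and that with CEY4 glc-2 (−0.85 ± 0.35). The gene eat-20, for a membrane protein of the pharynx, was higher with all 3, at 2.64 ± 0.09, 2.32 ± 0.09 and 1.99 ± 0.08. The gene ceh-22, for a homeobox factor that activates myo-2, averaged 4.37 ± 0.678 CPM in CEY1 FLAG against 0.636 ± 0.307 CPM in CEY1 MYC libraries (SD, n = 2 each), with a log2 fold change of 2.68 ± 0.44. With CEY4 it had 1.29 ± 0.47 and avr-15, for a glutamate-gated chloride channel of pharyngeal muscle, had 1.07 ± 0.18, but −0.11 and −0.34, neither called, with total-count scaling. The summed level of these 17 genes was 190 to 198 CPM in CEY1 FLAG, 130 to 130.4 CPM in CEY2 FLAG and 159 to 163 CPM in CEY4 FLAG libraries, against 51.2 to 54.4, 74.0 to 77.3 and 56.8 to 61.9 CPM in the MYC libraries of these strains. Most of the FLAG sums came from eat-20. Without it, an omission chosen after its level was seen, the direction in CEY2 turned. The other 16 genes summed to 59.8 to 59.9 CPM in CEY1 FLAG, 27.8 to 29.5 CPM in CEY2 FLAG and 31.3 to 33.5 CPM in CEY4 FLAG libraries. In the MYC libraries they summed to 30.2 to 32.2, 53.3 to 57.3 and 26.0 to 27.7 CPM. All these sums are TMM-scaled. Total-count scaling moved the log2 fold changes of all genes by a median of −1.49 (CEY1) and −1.41 (CEY4). In these 2 strains the direction of the 16-gene sums therefore depends on the scale.

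Nonmuscle myosin and markers of other tissues moved as well. The heavy chain gene nmy-2, needed for cytokinesis and for the polarity of the embryo, had log2 fold changes of 1.39 ± 0.05 (CEY1, but −0.0974 with total-count scaling), 2.71 ± 0.05 (CEY2) and 2.19 ± 0.05 (CEY4). The other nonmuscle heavy chain gene, nmy-1, had 1.12 ± 0.05, 0.32 ± 0.05 and 1.74 ± 0.05, but −0.37, −1.41 and 0.33 with total-count scaling. The nonmuscle light chain gene mlc-4 had −1.11 ± 0.11, 0.63 ± 0.11 and −0.37 ± 0.10, but −1.10 with CEY2 under total-count scaling. Of these 3 genes 2 were higher and 1 lower with CEY1, 3 and 0 with CEY2, and 2 and 1 with CEY4, against 0 and 3, 1 and 2, and 2 and 1 with total-count scaling. The 10 germline markers summed to 36064 to 37430 CPM in CEY1 FLAG, 57812 to 59607 CPM in CEY2 FLAG and 37324 to 37785 CPM in CEY4 FLAG libraries, against 8409 to 9009, 6164 to 6256 and 9340 to 9369 CPM in the MYC libraries, and for CEY1, CEY2 and CEY4 the calls were 10, 10 and 9 higher and 0 lower. With total-count scaling 4, 10 and 4 were higher and 6, 0 and 5 lower, and the medians of 1.28, 2.63 and 1.30 became −0.21, 0.90 and −0.12. The 8 intestine markers summed to 71568 to 75597 CPM in CEY1 FLAG, 24118 to 24964 CPM in CEY2 FLAG and 101469 to 104257 CPM in CEY4 FLAG libraries, against 15692 to 15730, 14664 to 14748 and 16596 to 17326 CPM in the MYC libraries. Most of each sum came from vit-2 and vit-6, which averaged 11538 and 11875 CPM in CEY2 FLAG against 5174 and 7340 CPM in CEY2 MYC libraries. With TMM scaling the CEY2 sum was thus above its control although most of the 8 markers were lower. Of the intestine markers 6, 2 and 4 were higher and 2, 6 and 2 lower with CEY1, CEY2 and CEY4, against 2, 0 and 2 higher and 4, 8 and 6 lower with total-count scaling. Of the 8 neuron markers 5, 2 and 5 were higher and 1, 5 and 2 lower with CEY1, CEY2 and CEY4, and of the 8 hypodermis markers 4, 0 and 2 were higher and 3, 6 and 4 lower. With total-count scaling 2, 0 and 2 neuron markers were higher and 4, 8 and 6 lower, and 2, 0 and 1 hypodermis markers were higher and 6, 8 and 6 lower. Of all tested genes 32.3%, 34.9% and 31.5% were higher and 34.4%, 34.1% and 37% lower with CEY1, CEY2 and CEY4. With total-count scaling 10848, 10889 and 12110 of all 15194 were lower. The neuron markers summed to 346 to 354 CPM in CEY1 FLAG, 167 to 168 CPM in CEY2 FLAG and 241 to 251 CPM in CEY4 FLAG libraries. Their sums in the MYC libraries were 116 to 118, 168 to 177 and 99.9 to 104 CPM. The hypodermis markers summed to 3802 to 4210, 402 to 420 and 667 to 669 CPM in the FLAG libraries. In the MYC libraries they summed to 1110 to 1219, 1103 to 1166 and 909 to 1005 CPM. In the FLAG libraries col-19 alone averaged 3686, 212 and 598 CPM, so these sums say little of the other hypodermis markers. Genes of a library share its total count, and the part of these other tissues' mRNAs in the levels of the 6 pharyngeal genes was not tested.

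The profiles of the 6 genes over the 6 groups were compared by the root mean square difference of their centred log2 group means. The 3 heavy chains lay close together, at 0.38 (myo-1 and myo-2), 0.33 (myo-1 and myo-5) and 0.27 (myo-2 and myo-5). The nearest troponin was tnt-4, at 0.58 to 0.79 from the heavy chains, while tni-4 was 1.20 to 1.41 and tnc-2 1.77 to 2.02 away from them. Between the troponins the differences were 0.86 (tni-4 and tnt-4), 1.49 (tnc-2 and tni-4) and 1.88 (tnc-2 and tnt-4).

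Among 6222 other named genes at 10 CPM or more, the profile nearest to myo-1 was that of cpna-2 at 0.20 and the next that of C32E12.4 at 0.26. C32E12.4 was also nearest to myo-2, at 0.31, followed by lyst-1 at 0.31. For myo-5 the nearest were C10G8.8 (0.20) and lfi-1 (0.24), and for tnt-4 C04E7.3 (0.15) and C31C9.6 (0.17). For tni-4 they were mbl-1, a muscleblind RNA-binding protein gene (0.11, with log2 fold changes of 1.58, −0.99 and −0.38 with CEY1, CEY2 and CEY4), and the ribosomal protein gene rpl-4 (0.17). For tnc-2 they were C15H9.9 (0.21) and ndab-2 (0.25). The average profile of the 6 was nearest to those of grd-3 (0.07), nfm-1 (0.09), the elongation factor gene eef-1A.2 (0.11), AC3.5 (0.12) and R10E8.6 (0.13).

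In the RefSeq gene table for WBcel235 the span of tnc-2 overlaps that of clec-143, which lay at 0.171 to 0.677 CPM in the group means here. The span of tni-4 overlaps 7 piRNA genes and 1 coding gene, Y59E9AL.36, and that of myo-1 holds 1 noncoding RNA gene. How the counting treated reads in overlaps, on either strand, or reads shared by related heavy chain genes is not given in the sources used here.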

How the data were processed

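Per the labels' protocols, Trizol released the RNA from the beads, and ScriptSeq v2 was the library kit. One deposited table holds the authors' raw read counts for each gene. The deposited normalized table holds log2 values, which the authors made by scaling the raw counts to 1 common total and adding 8 (recomputed values differed by at most 5.03e-05), and it was used for that check only. No aligner, genome build or annotation is named (not given in the sources used here). Symbols matched 18778 of 20182 identifiers (93%).

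The tests used edgeR 4.0.16 under R 4.3.3: filterByExpr by group (minimum count 10), TMM factors (0.548 to 0.640 in FLAG and 1.51 to 2.13 in MYC libraries), 1 mean per group over all 12 libraries, and two-sided quasi-likelihood F tests with Benjamini-Hochberg adjustment over 15194 genes, called under 0.05. SEs derive from the F statistic. The test was tried on simulated data. DESeq2 1.42.0 and the other alternatives are in the closing section. Statements on depth cover counting error only.

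The genes, lists and tests were chosen with earlier results of these data known. All 6 genes are named. Of the myosin and troponin paralogs all are named, and of the other lists at most 3 extremes per direction, by log2 fold change among called genes. Likeness used the 2 nearest genes per member (5 for the average), with log2 CPM at a prior count of 2. The symbol tmd-1 of the sarcomere list was not matched. No sequences are shown.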

Additional observations from a re-analysis of the deposited data

Results flagged for a closer look

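These results were picked out because the enrichment of FLAG over MYC differed between tagged proteins, by edgeR's test of the difference itself. For CEY1 minus CEY2 the log2 differences were 1.34 (myo-1), 0.91 (myo-2), 1.58 (myo-5), −1.25 (tnc-2), 3.01 (tni-4) and 2.82 (tnt-4). That of tnc-2 lay in the controls, with −0.02 ± 0.38 (not called) between the FLAG libraries and 1.23 ± 0.28 between the MYC libraries. Its FLAG values rest on few counts. For CEY1 minus CEY4 they were −0.90 (myo-1), −1.53 (myo-2), −0.63 (myo-5) and 2.30 (tni-4). For CEY2 minus CEY4 they were −2.24 (myo-1), −2.44 (myo-2), −2.21 (myo-5), −0.71 (tni-4) and −2.76 (tnt-4). The 3 contrasts share libraries and are not independent of each other.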

How the results depend on the processing

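The enrichments of CEY4 over its controls kept direction and call for the 6 genes under all alternatives run, as did those of tnc-2, tni-4 and tnt-4 in every strain. With total-count scaling myo-2 (−0.85) and myo-5 (−0.36) with CEY1 and myo-1 with CEY2 (−1.47) reversed, so that 2 genes were higher and 3 lower with CEY1, and 0 were higher with CEY2. With DESeq2's size factors in edgeR and in DESeq2's Wald test myo-1 with CEY2 was −0.0794 and −0.0791, neither called, giving 0 higher in both. The cause was not tested. The lower call of tnc-2 for CEY1 minus CEY2 was lost (0 genes lower) under total-count scaling, DESeq2's size factors and the Wald test, and over single left-out libraries that count ranged from 0 to 1. For CEY1 minus CEY4 tnt-4, not called, was −0.0174 with total-count scaling and −0.0258 with only the libraries compared, and ranged from −0.0301 to 0.14 over left-out libraries. The tnc-2 difference ranged from −0.16 to 0.12 between CEY1 and CEY2 FLAG and from −0.0332 to 0.26 between CEY2 and CEY4 FLAG libraries, and the count higher in CEY1 over CEY4 FLAG libraries from 1 to 2.

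The comparison of CEY2 with CEY4 MYC libraries changed sign for some genes under each scaling. The counts below are of called genes, while the brackets hold the genes that turned sign, called or not. Total-count scaling gave 4 higher and 0 lower (myo-1 0.22, myo-2 0.30, myo-5 0.0545, tnc-2 0.16, tni-4 0.42). There myo-5 and tnc-2 were not called, and tnt-4, which kept its sign, was called at 0.87. DESeq2's size factors gave 3 and 0 (myo-1 0.0898, myo-2 0.18, tnc-2 0.0349, tni-4 0.29), and of these genes only myo-2 and tni-4 were called. With only the libraries compared it was 2 and 0 (myo-1 0.14, myo-2 0.23, tnc-2 0.087, tni-4 0.35), and of these genes only myo-2 was called. The Wald test gave 2 and 0 (myo-1 0.0896, myo-2 0.18, tnc-2 0.0355, tni-4 0.29), again with only myo-2 of these called. Over left-out libraries the count of higher genes in this comparison ranged from 0 to 1 and tni-4 from −0.15 to 0.0154. For CEY1 over CEY2 MYC libraries tni-4, not called, was −0.20 (total count), −0.10 (size factors), −0.13 (only these libraries) and −0.10 (Wald test), the Wald test called 0 higher, and left-out libraries gave 1 to 3 lower. There tnt-4, not called at −0.19, was called lower in the same 4 settings (−0.63, −0.54, −0.56 and −0.53). For CEY1 over CEY4 MYC libraries the Wald test called 0 higher, and left-out libraries gave 0 to 1.

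Same-numbered libraries did not deviate together (correlations across genes between −0.0264 and 0.0331 for the pairs of groups). This cannot show whether FLAG and MYC libraries of the same number came from the same worm sample. With the replicate block all 72 values kept direction and call, for example 5 higher and 1 lower with CEY1. Without the filter on low counts 71 of 72 did, the other being myo-1 in CEY1 over CEY2 MYC libraries (−0.15, not called). The tnc-2 values rest on 12 to 19 counts in FLAG libraries.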
